A study of Mus musculus with 18 samples.

Results

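The genes described here are the 5 NF-kappaB subunit genes (Rela, Relb, Rel, Nfkb1 and Nfkb2), the inhibitor genes Nfkbia, Nfkbie and Nfkbiz, the deubiquitinase gene Tnfaip3, and Birc3. They were chosen by gene name, with earlier results of these data known. They are 10 of the 22608 genes listed in either of the study's FPKM tables (fragments per kilobase of gene, scaled to sequencing depth). Both tables list all 10. RNA came from mouse bone marrow cells that were homozygous knockout (KO), heterozygous knockout (HET) or wild type (WT) for Fabp4, a gene for a fatty acid binding protein. One set, called in vitro here, was sorted from marrow that the labels call "vitro" without naming the culture, and has 3 KO, 3 HET and 3 WT libraries. The other was sorted directly from marrow and has 3 KO, 2 HET and 3 WT libraries. The labels do not give the surface markers of the sort, the strain, age or sex of the mice, how the allele was made, or whether animals were pooled.

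NF-kappaB proteins are dimers that bind kappaB sites in DNA. At rest, IkB proteins hold them in the cytoplasm; signals from Toll-like, interleukin-1 and TNF receptors activate a kinase complex that marks IkB for destruction, and the freed dimers then switch on inflammatory and survival genes. Among their own targets are the genes for IkB-alpha, A20 and cIAP2, so that transcripts of these inhibitors are often read as a trace of recent activity in myeloid cells.

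Between 16779 and 18029 genes were above 0 per library in vitro, and between 3633 and 8526 in marrow; Spearman coefficients between libraries were 0.962 to 0.970 in vitro and 0.427 to 0.621 in marrow. The files hold no read counts. Depth estimated from the step size of low values in single-exon genes ranged over 30.7 to 36.9 M fragments for the in vitro set and over 3.96 to 36.0 M for marrow, where HET replicate 1 was lowest. Fabp4 itself was listed at 0, 0 and 0 FPKM in the in vitro KO libraries, 0, 0.0676 and 0 in HET and 0, 0.0326 and 0.330 in WT, so it was too low in every genotype to check the labels; its marrow level was not analysed here. Xist and the Y-linked gene Ddx3y were both above 0 in all 9 in vitro libraries. Nothing in the labels says that libraries of a group came from separate cultures or animals, and p-values measure only the spread between these libraries.

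Promoter sequences with letter matches to the kappaB motif are shown first, for 2 inhibitor genes (Nfkbia and Tnfaip3) and 2 subunit genes (Rel and Rela). RefSeq promoters (GRCm38.p6) were at hand for 7 of the 10 genes, all but Nfkbiz, Relb and Nfkb1. Each sequence is the 250 bases before a transcription start, written 5′ to 3′ in the gene's own direction. Capitals mark every match, on either strand, to GGGNNNNNCC, the loose form of the kappaB motif; the stricter kappaB consensus lies wholly within it. The windows are chr12:55492648-55492897 for Nfkbia, chr10:19015411-19015660 for the first of the Tnfaip3 starts and chr11:23770970-23771219 for Rel, all on the minus strand, and chr19:5637291-5637540 for Rela on the plus strand.
Nfkbia: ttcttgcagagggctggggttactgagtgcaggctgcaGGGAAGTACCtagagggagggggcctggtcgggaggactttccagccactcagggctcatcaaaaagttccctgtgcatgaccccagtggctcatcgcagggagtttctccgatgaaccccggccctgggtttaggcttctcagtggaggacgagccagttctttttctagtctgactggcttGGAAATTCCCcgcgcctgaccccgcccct
Tnfaip3: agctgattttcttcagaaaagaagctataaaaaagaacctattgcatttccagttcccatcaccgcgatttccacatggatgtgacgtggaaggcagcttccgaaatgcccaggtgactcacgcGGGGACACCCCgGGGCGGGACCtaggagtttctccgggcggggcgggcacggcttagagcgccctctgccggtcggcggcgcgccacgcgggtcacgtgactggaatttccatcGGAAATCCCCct
Rel: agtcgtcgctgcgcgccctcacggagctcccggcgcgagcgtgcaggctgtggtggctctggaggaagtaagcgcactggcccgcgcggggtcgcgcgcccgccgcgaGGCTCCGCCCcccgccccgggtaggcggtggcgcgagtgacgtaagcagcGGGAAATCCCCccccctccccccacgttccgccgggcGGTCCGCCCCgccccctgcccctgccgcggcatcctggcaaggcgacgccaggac
Rela: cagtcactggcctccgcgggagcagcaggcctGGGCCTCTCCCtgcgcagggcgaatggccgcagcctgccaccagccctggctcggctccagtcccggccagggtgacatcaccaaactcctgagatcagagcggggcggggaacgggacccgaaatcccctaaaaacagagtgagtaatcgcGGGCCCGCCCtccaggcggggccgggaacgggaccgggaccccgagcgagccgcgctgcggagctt

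Nfkbia had 1 match to the stricter consensus, GGAAATTCCC on the reverse strand, whose bases lie -29 to -20 from the start. Tnfaip3 had 2, of which GGAAATCCCC on the reverse strand lies at -12 to -3. With each strand counted separately, Rel had 3 overlapping ones, all within GGGAAATCCCC at -92 to -82. Rela had none, although its window held 4 loose matches by strand, all within the stretches at -218 to -208 and -66 to -57. Over the 7 genes, all 7 had a loose match and 5 of 7 (Nfkbia, Tnfaip3, Rel, Nfkbie and Nfkb2, not Rela or Birc3) had a consensus match in at least 1 promoter. Counted by promoter, 10 of 10 promoters of these genes held the loose form and 7 of 10 the consensus. Of 32851 RefSeq promoters of the same length, 45.8% held the loose form and 3.90% the consensus. The members' windows ranged in GC content from 43.6% for Birc3 to 77.6% for Rel, and base composition was not matched. A match describes letters only and is not a site of binding.

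In vitro, Nfkb1 and Rela were far more abundant than the other 3 subunit genes, Rel, Nfkb2 and Relb. Nfkb1, which encodes p105 and its product p50, the DNA-binding partner without an activation domain, was listed at 47.9, 43.1 and 45.7 FPKM in KO, 49.92, 50.002 and 50.15 in HET and 46.6, 52.2 and 42.1 in WT. Rela, which encodes the activating subunit p65, was listed at 21.5, 21.1 and 19.2 FPKM in KO, 21.4, 18.6 and 18.6 in HET and 17.1, 19.1 and 18.1 in WT. In all 9 libraries Nfkb1 was above Rela, by 2.04 to 2.73 times on this length-scaled unit.

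Rel, which encodes c-Rel, the activating subunit best known in lymphocytes, was listed at 1.91, 2.22 and 2.48 FPKM in KO, 1.85, 2.68 and 3.15 in HET and 3.09, 2.96 and 2.59 in WT. Nfkb2, which encodes p100, the precursor of the alternative-pathway subunit p52, was listed at 1.63, 1.495 and 1.60 FPKM in KO, 1.85, 1.92 and 1.78 in HET and 1.62, 1.51 and 1.34 in WT. Relb, the partner of p52, reached only 0.720 to 1.04 FPKM in KO, 0.732 to 0.838 in HET and 0.547 to 0.850 in WT. Nfkb1 exceeded Nfkb2 by 26.1 to 34.6 times, and Rela exceeded Relb by 18.4 to 35.0 times. Of the summed FPKM of the 5 subunit genes, Nfkb1 made up 62.8 to 68.4%, Rela 24.6 to 30.7%, Rel 2.44 to 4.47%, Nfkb2 1.98 to 2.59% and Relb 0.716 to 1.49% over the 9 libraries. The same 2 subunit genes led in every genotype.

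Nfkbia, which encodes IkB-alpha, the inhibitor that is destroyed and remade within a cycle of signalling, had the highest mean level of the 10 genes. It was listed at 47.7, 74.4 and 59.5 FPKM in KO, 44.6, 50.3 and 57.1 in HET and 65.0, 38.8 and 47.5 in WT, so the genotypes overlapped widely. Nfkbie, which encodes IkB-epsilon, the slower inhibitor, was listed at 5.72, 5.65 and 5.67 FPKM in KO, 6.22, 6.07 and 7.06 in HET and 5.06, 5.99 and 5.36 in WT. Nfkbia was 6.48 to 13.2 times as high as Nfkbie over the 9 libraries. Nfkbiz, which encodes the nuclear protein IkB-zeta, a co-activator of secondary response genes such as Lcn2 and Il6, was listed at 10.6, 10.8 and 11.2 FPKM in KO, 8.63, 9.79 and 11.5 in HET and 9.55, 10.47 and 10.496 in WT.

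Tnfaip3, which encodes A20, the ubiquitin-editing enzyme that shuts off receptor signalling upstream of the kinase complex, was listed at 9.83, 8.96 and 10.6 FPKM in KO, 8.28, 8.94 and 10.496 in HET and 9.01, 5.63 and 4.55 in WT. WT replicate 1 lay among the KO and HET libraries, and WT replicates 2 and 3 lay below all 6 of them. Birc3, which encodes cIAP2, a ubiquitin ligase of TNF receptor signalling and survival, was listed at 9.44, 9.69 and 8.98 FPKM in KO, 9.29, 10.8 and 11.2 in HET and 10.2, 9.12 and 8.15 in WT, with all 3 groups overlapping. In order of mean level over the 9 libraries the genes stood as Nfkbia (53.9 FPKM), Nfkb1 (47.5), Rela (19.4), Nfkbiz (10.3), Birc3 (9.65), Tnfaip3 (8.48), Nfkbie (5.87), Rel (2.55), Nfkb2 (1.64) and Relb (0.780). The ranges of neighbours overlapped for Nfkbia and Nfkb1, for Nfkbiz and Birc3, for Birc3 and Tnfaip3, for Tnfaip3 and Nfkbie, and for Rel and Nfkb2.

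**Figure D1:**
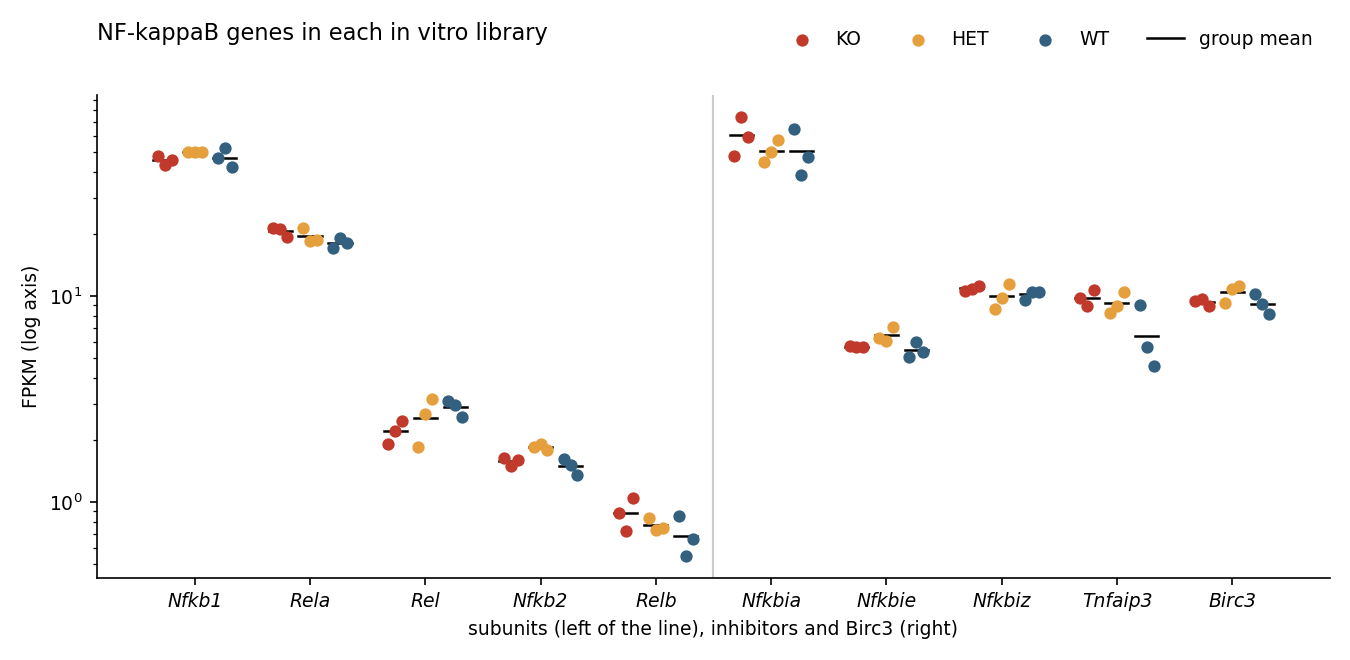
Points are the FPKM of each NF-kappaB gene in each in vitro library on a log axis, by genotype (KO, HET, WT from left to right), with a bar at the group mean. Nfkb1 (42.1 to 52.2 FPKM) and Nfkbia (38.8 to 74.4) lie highest, Relb (0.547 to 1.04) lies lowest, and the WT points of Tnfaip3 span 4.55 to 9.01 FPKM.

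The KO and WT cells in vitro were compared to ask whether loss of Fabp4 moved these transcripts. None of the 9 members that passed the filter on low values (all but Relb) was called, against 2.99% of 10877 genes at a Benjamini-Hochberg adjusted p under 0.05 in limma. Changes below are on the log2(FPKM + 1) scale, which understates the change of low genes. Tnfaip3 came nearest, at 9.81 ± 0.847 FPKM in KO and 6.40 ± 2.33 in WT (SD, n = 3 each), a log2 change of 0.59 with a standard error of 0.18 and an adjusted p of 0.1001 in limma. It was the only member with an unadjusted p under 0.05 (0.00662), a level that 19.4% of all tested genes reached.

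Nfkbia averaged 60.5 ± 13.4 FPKM in KO and 50.4 ± 13.3 in WT (SD, n = 3 each), with a log2 change of 0.27 and a 95% interval of -0.14 to 0.67. Rela averaged 20.6 ± 1.204 FPKM in KO and 18.1 ± 1.04 in WT (SD, n = 3 each), and its log2 change of 0.18 had an interval of -0.0063 to 0.36. Rel averaged 2.20 ± 0.285 FPKM in KO and 2.88 ± 0.263 in WT (SD, n = 3 each), and its log2 change of -0.28 had an interval of -0.58 to 0.02. Neither passed the test across all genes (limma adjusted p = 0.274 for Rela and 0.292 for Rel).

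For 5 members the 95% interval is given as a fold of FPKM + 1, which for a gene as low as Nfkb2 (1.57 FPKM in KO and 1.49 in WT) is narrower than the fold of FPKM itself. For Nfkb1 it ran from 0.858 to 1.10 fold, for Nfkb2 from 0.896 to 1.19 fold, for Nfkbie from 0.897 to 1.19 fold, for Nfkbiz from 0.914 to 1.24 fold and for Birc3 from 0.878 to 1.19 fold. The KO and WT libraries did not overlap for 3 of 9 members, Nfkbiz and Rela above and Rel below WT, against 22.9% of all tested genes; for Rela the gap between the lowest KO library (19.2 FPKM) and the highest WT library (19.1 FPKM) was slight. With 9 genes that share is near the background and is not a result about them. The median log2 change of the 9 members was 0.05, and that of all tested genes 0.04.

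The HET cells were set against the same WT libraries, so the 2 comparisons are not independent. None of the 9 tested members was called, against 3.68% of all tested genes. Tnfaip3 was again the only one with an unadjusted p under 0.05 (0.0152), against 23.4% of all tested genes. It averaged 9.24 ± 1.14 FPKM in HET and 6.40 ± 2.33 in WT (SD, n = 3 each), with a log2 change of 0.51 and a limma adjusted p of 0.121. Nfkbie averaged 6.45 ± 0.535 FPKM in HET and 5.47 ± 0.474 in WT (SD, n = 3 each), with a log2 change of 0.20 and an adjusted p of 0.217 in limma. Nfkb2 averaged 1.85 ± 0.0698 FPKM in HET and 1.49 ± 0.141 in WT (SD, n = 3 each), with a log2 change of 0.19 and an adjusted p of 0.241 in limma.

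For Nfkbie and Nfkb2 the 3 HET libraries lay above the 3 WT libraries, and these were the 2 of 9 members without overlap, against 29.1% of all tested genes. Nfkbia stood at 50.7 ± 6.24 FPKM in HET and 50.4 ± 13.3 in WT (SD, n = 3 each), with an interval of 0.770 to 1.35 fold. The members' median log2 change was 0.10, beside 0.04 for all tested genes.

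Between KO and HET, none of the 9 members was called in limma, against 1.99% of all tested genes, and none had an unadjusted p under 0.05, against 13.2%. Nfkbie, Nfkb1 and Nfkb2 had KO libraries wholly below the HET libraries (3 of 9, against 22.4% of all tested genes). Nfkb1 averaged 45.5 ± 2.38 FPKM in KO and 50.02 ± 0.113 in HET (SD, n = 3 each), with a log2 change of -0.13 and an adjusted p of 0.566 in limma. The members' median log2 change was -0.13 and that of all tested genes -0.0015.

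**Figure D2:**
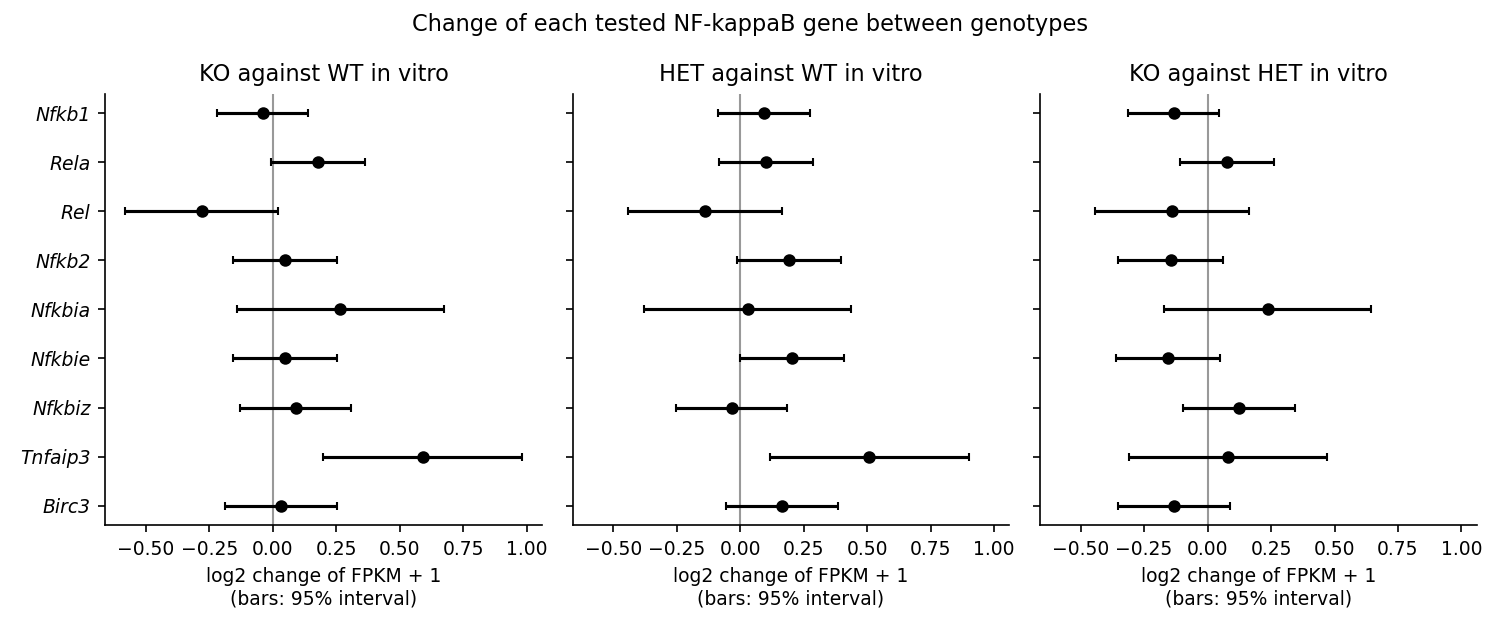
Points are the log2 change of FPKM + 1 for the 9 tested genes in the 3 in vitro comparisons, and bars are 95% intervals from the limma fit. The intervals of Tnfaip3 lie above 0 in KO against WT (0.20 to 0.98) and in HET against WT (0.12 to 0.90), before adjustment over all genes, and span 0 in KO against HET.

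Whether Tnfaip3 passed the threshold depended on 1 library. Without WT replicate 1, Tnfaip3 rose in KO by 0.83 (limma adjusted p = 0.00784) and in HET by 0.75 (adjusted p = 0.00823) on the log2 scale, and these were the only 2 calls of a member among 1063 values over 55 results and their settings. Without that library the calls over all genes also rose in number, to 386 of 10844 in KO against WT and 626 of 10844 in HET against WT, beside 325 and 400 of 10877 with it. Without WT replicate 3 the log2 change fell to 0.41 in KO against WT and to 0.32 in HET against WT. WT replicate 1 was also the highest WT library for Nfkbia and Birc3, and the lowest of all 9 for the summed FPKM of 24 immediate early genes, whose sums were 2117, 2509 and 2403 in KO, 1829, 1803 and 2040 in HET and 1027, 1599 and 1666 in WT. It was also the lowest of all 9 for the summed FPKM of monocyte and macrophage markers (299) and of inflammatory targets (372), and its sum of mast cell, basophil and eosinophil markers was 3402, against 5302 and 5975 in the other WT libraries. What set this library apart was not tested.

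**Figure D3:**
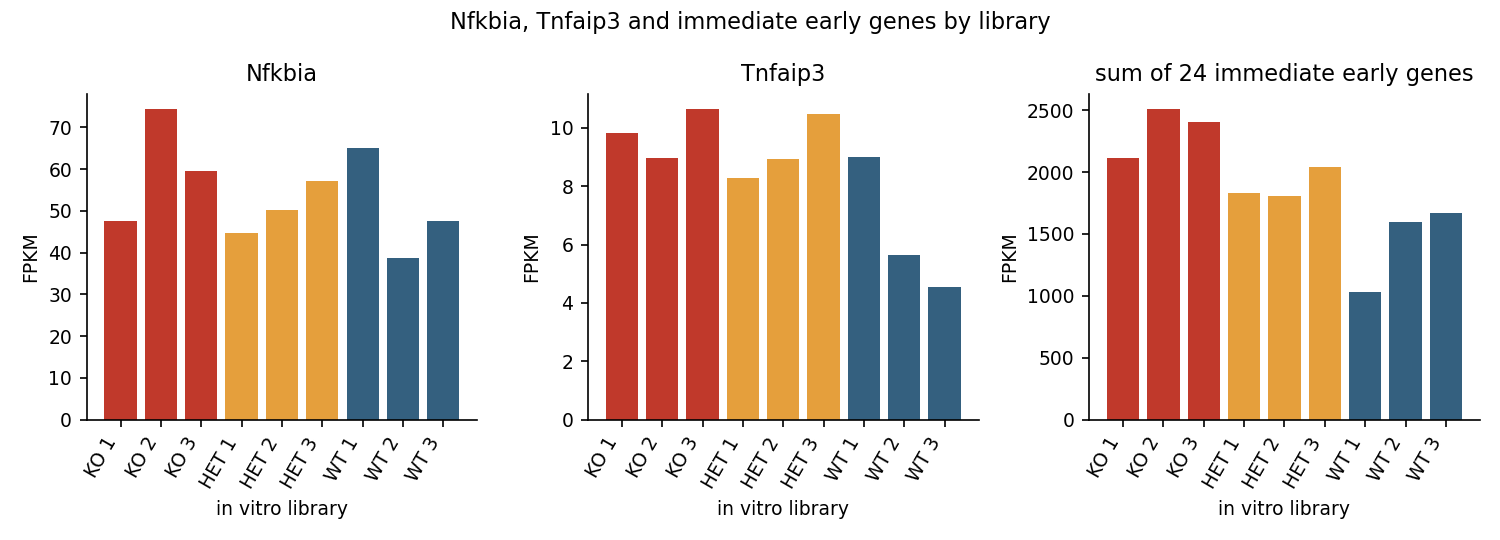
Bars are the FPKM of Nfkbia, of Tnfaip3 and of the sum of 24 immediate early genes in each in vitro library, with KO, HET and WT from left to right. WT replicate 1 is the highest WT library for Nfkbia (65.0) and Tnfaip3 (9.01) and the lowest library for the immediate early sum (1027).

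Members also differed in how far replicates spread. Within genotypes the SD of log2(FPKM + 1) was 0.297 for Nfkbia and 0.276 for Tnfaip3, wider than 96.2% and 94.8% of tested genes, whose median SD was 0.130. Nfkb2, at 0.0563, was tighter than all but 4.57% of them. Over the 9 libraries Tnfaip3 and Birc3 varied together, with a Pearson r of 0.66 overall and 0.78 after genotype means were removed. Rela and Rel varied oppositely, with r of -0.87 overall and -0.79 within genotypes; these were 2 of 36 pairs computed, all from the same 9 libraries, and are given as a description.

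Likeness was ranked over the other tested genes, with predicted genes, genes with clone names, pseudogenes and antigen receptor segments left out. The highest of so many correlations over 9 libraries can be high by chance, so the genes are given as a description only. Of the genes kept, those most like Nfkbia over the 9 libraries were Zfp97 (r = 0.934), Hoxa3 (0.925), Arl16 (0.914), Cept1 (0.907) and Gstt2 (0.900). Zfp97 (0.906 to 1.61 FPKM) and Hoxa3 (1.07 to 1.72 FPKM) were near the filter on low values. Those most like Rela were Cib1 (r = 0.916), Gaa (0.909), Rrs1 (0.895), Ttyh2 (0.894) and Umps (0.893). For Tnfaip3, added after its values were seen, they were Brd9 (r = 0.981), Kmt5c (0.976), Tbk1 (0.973), Abca3 (0.973) and Rab3gap1 (0.970).

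Genes around these members were read from lists of the pathway, chosen for their known roles but with earlier results of these data known. Counts on these lists are therefore a description and not independent support. Upstream, 0 of 11 tested receptor and ligand genes and 0 of 28 adaptor genes were called in KO against WT, against 2.99% of all tested genes. Tnfrsf1a and Cd14, the receptors of highest level, averaged 30.1 and 16.1 FPKM in KO and 27.8 and 11.0 in WT, and the adaptor genes Card9 and Rbck1 averaged 60.02 and 50.5 FPKM in KO and 52.0 and 53.4 in WT. Of 7 genes on the list of IkB kinases 1 rose, Ikbkb, the catalytic kinase IKK-beta. It averaged 24.1 ± 2.17 FPKM in KO and 18.5 ± 0.943 in WT (SD, n = 3 each, limma adjusted p = 0.0451). That call was lost under 13 of 18 alternatives. Of 8 other IkB genes 1 rose, Nfkbid, the nuclear protein IkBNS, at 8.16 ± 0.211 FPKM in KO and 5.34 ± 0.938 in WT (SD, n = 3 each; limma adjusted p = 0.0262), a call lost under 6 of 18.

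Of 18 other negative regulators 2 rose in KO and 0 fell, against 2.99% of all tested genes called. The same share stands beside the inflammatory and survival targets below. Zfp36, whose protein tristetraprolin speeds the decay of cytokine mRNAs, averaged 163 ± 25.9 FPKM in KO and 88.1 ± 15.8 in WT (SD, n = 3 each; limma adjusted p = 0.00902), and Socs3, an inhibitor of cytokine receptor signalling, averaged 33.5 ± 1.27 and 15.8 ± 4.37 FPKM in KO and in WT (SD, n = 3 each; limma adjusted p = 0.0105). The call for Socs3 was lost without KO replicate 1 (adjusted p = 0.0571) or KO replicate 3 (0.0549). Of 18 inflammatory targets 1 rose, the chemokine gene Cxcl2, at 106 ± 34.8 FPKM in KO and 42.1 ± 8.92 in WT (SD, n = 3 each; limma adjusted p = 0.0368), a call lost under 6 of 18 alternatives. Of 10 survival targets 1 rose, the stress gene Gadd45b, at 32.7 ± 2.65 FPKM in KO and 23.0 ± 0.7498 in WT (SD, n = 3 each; limma adjusted p = 0.0108), not called without KO replicate 3 (0.0626).

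The immediate early list holds transcription factor, phosphatase and other genes that answer MAP kinase signals within minutes. Of its 22 tested genes 9 rose in KO and 0 fell, against 2.99% of all tested genes called. Zfp36 is counted here and among the other negative regulators. Of these 9 calls, Egr2 was lost under 10 of 17 alternatives and Ier5 under 4 of 18, and the other 7 under none. The list's median log2 change was 0.59, beside 0.05 for the NF-kappaB members and 0.04 for all tested genes. Fos rose to 390 ± 38.1 FPKM in KO, against 83.5 ± 11.1 in WT (SD, n = 3 each; limma adjusted p = 1.83e-06). Fosb rose to 157 ± 13.7 FPKM in KO, against 39.9 ± 10.2 in WT (SD, n = 3 each; limma adjusted p = 0.000134). Markers moved in the same comparison. Of 8 tested monocyte and macrophage markers 2 rose (Ccr2 and Itgam), their summed FPKM being 335 to 536 in KO and 299 to 422 in WT, and 0 of 13 neutrophil markers were called, with sums of 5496 to 9494 in KO and 5943 to 7579 in WT. Among the other 8 marker lists Flt3 (dendritic cells) and Hlf (stem and progenitor cells) rose and Pf4 (megakaryocytes) and Ear2 (mast cells, basophils and eosinophils) fell. Of these marker calls, Ccr2 and Hlf were lost under no alternative, Itgam under 7, Flt3 under 3, Pf4 under 11 and Ear2 under 6. The part of cell composition in these gene changes was not tested, and in bulk RNA fewer cells of a type and less RNA per cell cannot be told apart.

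In HET against WT, 6 of 18 inflammatory targets rose and 0 fell, with a median log2 change of 0.32, against 3.68% of all tested genes called. Nos2, the inducible nitric oxide synthase, averaged 3.69 ± 0.603 FPKM in HET and 0.825 ± 0.219 in WT (SD, n = 3 each; limma adjusted p = 0.000176). Ccl2, a monocyte chemokine, averaged 5.89 ± 1.67 FPKM in HET and 1.47 ± 0.375 in WT (SD, n = 3 each; limma adjusted p = 0.00134). Saa3, an acute phase protein gene, averaged 142 ± 14.1 FPKM in HET and 31.7 ± 9.49 in WT (SD, n = 3 each; limma adjusted p = 0.00963), and Nlrp3, the inflammasome sensor, averaged 6.52 ± 0.912 FPKM in HET and 3.27 ± 0.591 in WT (SD, n = 3 each; limma adjusted p = 0.00969). The other 2 were Lcn2 and C3. The calls for Saa3 and Nlrp3 were lost under 1 and 2 alternatives, and those for Lcn2 and C3 under 4 and 9 of 18, while those for Nos2 and Ccl2 were lost under none.

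Some upstream genes were called in HET against WT, where the share over all tested genes was 3.68%. Of 7 genes on the list of IkB kinases 1 rose, Ikbke, the inducible kinase IKK-epsilon. It averaged 26.8 ± 5.42 FPKM in HET and 14.6 ± 1.32 in WT (SD, n = 3 each, limma adjusted p = 0.00587). Of 11 receptor and ligand genes 2 rose, Tlr2 (3.79 and 1.88 FPKM in HET and in WT) and Tnfrsf1b (16.8 and 11.4), with limma adjusted p of 0.0147 and 0.0242, and of 28 adaptors 1 rose, Card9 (65.6 and 52.0 FPKM, adjusted p = 0.0223). The calls for Tlr2, Tnfrsf1b and Card9 were lost under 3, 5 and 6 alternatives. Of 18 negative regulators 1 rose, Socs3 (34.7 and 15.8 FPKM in HET and in WT, limma adjusted p = 0.00654), 7 of 22 immediate early genes rose (the calls for Nr4a1, Ier5 and Junb being lost under 12, 5 and 4 of 18 alternatives), and no other IkB gene (of 8) or survival target (of 10) was called.

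In the same HET libraries 5 of 8 monocyte and macrophage markers and 3 of 13 neutrophil markers rose, against 3.68% of all tested genes called. Their medians were 0.89 and 0.73 on the log2 scale, beside 0.04 for all tested genes. Of these 8 calls, Itgam, Cxcr2 and Ltf were lost under 7, 4 and 2 of 18 alternatives, and the erythroid gene Hba-a1 fell. Summed FPKM was 441 to 501 in HET and 299 to 422 in WT for the first list, and 7306 to 9776 in HET and 5943 to 7579 in WT for the second. Of the 17 and 13 genes on these lists the table holds 15 and 13, none at 0 in all libraries, and their part in the changes of the inflammatory list was not tested.

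Between KO and HET, 3 of 18 inflammatory targets fell, against 1.99% of all tested genes called. Nos2 averaged 0.251 ± 0.0933 FPKM in KO and 3.69 ± 0.603 in HET (SD, n = 3 each; limma adjusted p = 2.37e-05), Saa3 20.1 ± 9.84 and 142 ± 14.1 FPKM in KO and in HET (SD, n = 3 each; adjusted p = 0.00181), and Ccl2 2.82 ± 0.827 and 5.89 ± 1.67 FPKM in KO and in HET (SD, n = 3 each; adjusted p = 0.0451, lost under 10 of 17 alternatives). Of the receptors Ly96, the partner of Tlr4, rose and Tlr2 fell, calls lost under 7 of 18 and 9 of 17 alternatives. Of the immediate early genes Nr4a1 and Fos rose, calls lost under 3 and 9 of 18, and no gene of the other 5 lists was called. In this comparison 3 of 8 monocyte and macrophage markers and 2 of 13 neutrophil markers fell. The stem and progenitor markers Hlf and Mecom rose, calls lost under no alternative run. The dendritic cell marker Flt3 rose and the stromal marker Pdgfrb fell, calls lost under 7 and 9 of 17. The part of these markers in the changes above was not tested.

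**Figure D4:**
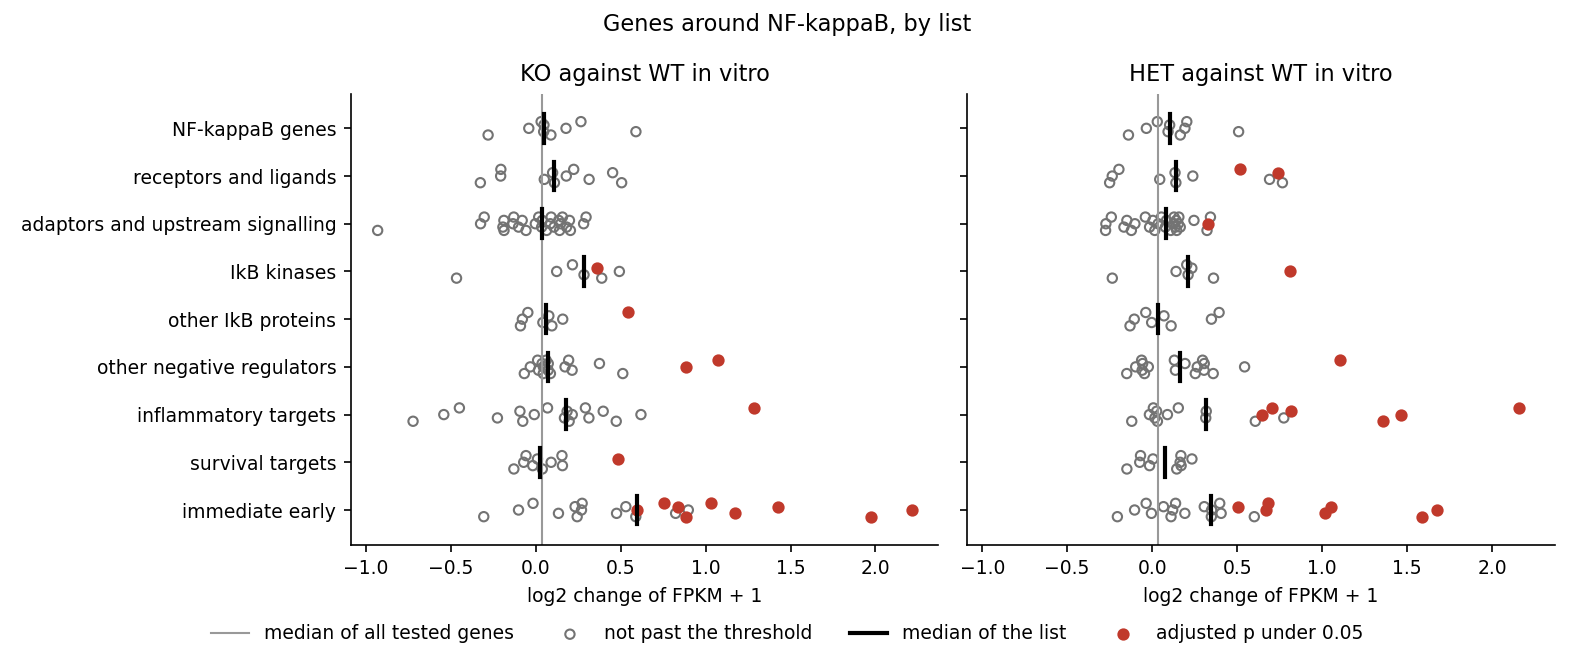
Points are the log2 change of FPKM + 1 of every tested gene on each list in KO against WT and in HET against WT in vitro. Filled points passed an adjusted p of 0.05, black bars are list medians and the grey line is the median of all tested genes. No NF-kappaB gene is filled; 9 immediate early genes are in KO and 7 in HET, and 6 inflammatory targets are in HET and 1 in KO.

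In sorted marrow the values of most members were unsteady. Zeros were common in these libraries, so levels are given one by one and with no mean. Nfkbia was the one member above 0 in all 8 libraries, at 897, 565 and 528 FPKM in KO, 354 and 339 in HET and 470, 656 and 883 in WT. Its SD within genotypes, 0.390 on the log2(FPKM + 1) scale, was wider than that of 2.93% of all tested genes, whose median was 1.68, and of 23.6% of the 140 genes of like level. KO and WT overlapped, and both HET libraries lay below them.

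Nfkb1 was listed at 58.5, 30.7 and 27.3 FPKM in KO, 0 and 20.3 in HET and 17.4, 38.5 and 6.49 in WT. Rela was listed at 0.0726, 15.9 and 47.9 FPKM in KO, 0 and 11.9 in HET and 0.0136, 27.6 and 15.2 in WT. Rel was listed at 3.47, 0.619 and 2.16 FPKM in KO, 0 and 0 in HET and 13.0, 13.5 and 0.471 in WT. Within KO and WT each of Rela and Rel thus spanned from under 1 FPKM to well above it. Nfkb2 was listed at 0 in all 3 KO libraries, at 0 and 0.00760 FPKM in HET and at 0, 4.13 and 1.12 in WT, and Relb stayed at or below 4.65 FPKM in all 8 libraries.

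Nfkbiz was listed at 2.80, 18.1 and 19.2 FPKM in KO, 0 and 0 in HET and 42.8, 23.1 and 1.51 in WT. Tnfaip3 was listed at 0.0128, 29.5 and 14.8 FPKM in KO, 0 and 5.25 in HET and 32.3, 0.834 and 0 in WT, and the 3 genotypes overlapped. Birc3 was listed at 11.2, 16.1 and 10.2 FPKM in KO, 21.5 and 0 in HET and 1.13, 2.16 and 30.0 in WT. Nfkbie was at 0 in 5 of 8 libraries and reached 10.54 and 6.78 FPKM in WT replicates 2 and 3.

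**Figure D5:**
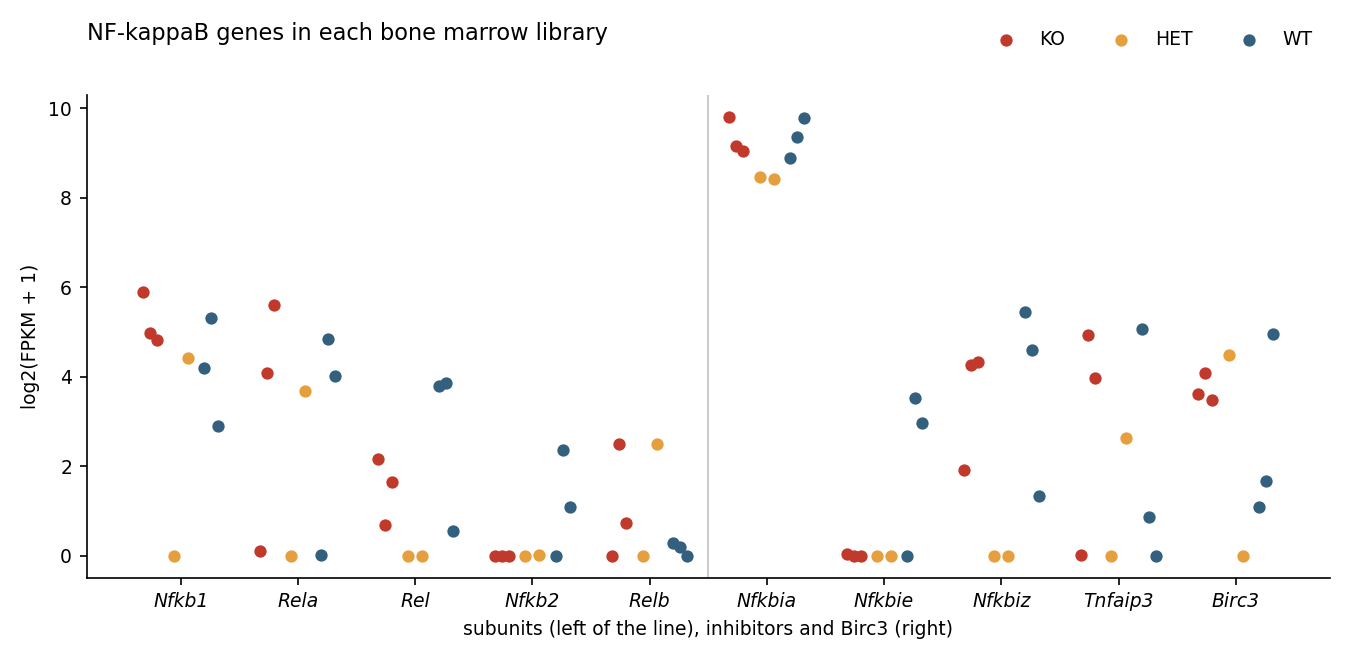
Points are log2(FPKM + 1) of each NF-kappaB gene in each marrow library, by genotype (KO, HET, WT from left to right). Nfkbia lies between 339 and 897 FPKM in all 8 libraries, while every other gene was listed at 0 in at least 1 library.

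Of the 7 members that passed the filter (not Nfkbie, Relb or Nfkb2) none was called in KO against WT, where limma called 0 of 7246 genes (0.0%) and 370 (5.11%) had an unadjusted p under 0.05, none of them a member. None of the 7 had groups without overlap, against 12.3% of all tested genes. Nfkbia had a log2 change of -0.0086 with an interval of -0.81 to 0.79, and the intervals of the other 6 reached as far as -3.95 and 4.92, so changes of several fold were not detectable. The list medians were 0.31 for the members and -0.18 for all tested genes.

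In HET against WT none of the 7 was called, against 0.262% of all tested genes. Nfkbia had a log2 change of -0.90 with an interval of -1.80 to -0.0029 and a limma adjusted p of 0.401, and Nfkbiz, listed at 0 in both HET libraries, an adjusted p of 0.382. These were the 2 with an unadjusted p under 0.05 (0.0494 and 0.0428), against 12.4% of all tested genes. Nfkbia, Nfkbiz and Rel had HET libraries wholly below WT (3 of 7, against 30.1%). All 7 changes were negative with a median of -1.11, beside a median of -0.99 for all tested genes. With quantile normalization the median of all genes was -0.03, the change of Nfkbia was -0.90, and Birc3 (0.55) and Tnfaip3 (0.22) turned positive, so the shared direction did not hold under that scaling. The HET libraries had the fewest genes above 0 (3633 and 5209), and at 3.96 and 11.7 M fragments the lowest estimated depths of the 8; the part of depth in this difference was not tested.

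In KO against HET none of the 7 was called, against 0.166% of all tested genes. The lowest adjusted p in limma was 0.448, for Nfkbia, with a log2 change of 0.89, and no member had an unadjusted p under 0.05, against 11.3%. Nfkbia, Nfkbiz, Nfkb1 and Rel had KO libraries wholly above HET (4 of 7, against 27.9%), and the median change was 1.51 for the members and 0.83 for all tested genes. Summed FPKM of 13 neutrophil markers was 136712 to 211960 in KO, 132151 and 132632 in HET and 7560 to 57132 in WT, and the genotypes also differed in the share of summed FPKM held by the 10 highest genes (13.7 to 39.7% over the 8 libraries). Summed FPKM of dendritic cell markers (9 of 10 in the table) was 1124 to 3237 in KO, 2164 and 2596 in HET and 630 to 809 in WT, so WT lay below both. That of T and NK cell markers (4 of 10 in the table) was 401 to 560 in KO, 0 and 147 in HET and 45.9 to 633 in WT. Most of it was Nkg7, at means of 457, 73.3 and 218 FPKM in KO, HET and WT. Nkg7 also averaged 206 FPKM in vitro, where Klrb1c, the next highest of that list, averaged 0.270. The sum is therefore largely a value of 1 gene and not a measure of T and NK cells. For erythroid and for B cell markers the marrow table holds 3 of 10 each, and their sums stayed at or below 28.0 and 82.0 FPKM. What these shifts did to the members' FPKM was not tested. No gene of the 8 lists around the members was called in any of the 3 marrow comparisons.

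The KO against WT change of each member was also compared between the 2 sets in a joint fit, whose contrast uses only differences within a table. That fit took 1 spread per gene for both sets, although the median SD within genotypes was 0.130 in vitro and 1.68 in marrow. Its intervals, p-values and counts are therefore approximate. For Nfkb1 the standard error was 1.27, below the 1.44 of marrow alone, so that interval is too narrow. The same holds for Nfkbiz, Rel and Birc3, but not for Nfkbia, Rela and Tnfaip3. None of the 7 members tested was called, against 0.738% of 6915 genes called, and none had an unadjusted p under 0.05, against 7.85%. The difference, in vitro minus marrow, was 0.28 for Nfkbia with an interval of -0.67 to 1.22, and -0.41 for Tnfaip3 with an interval of -4.30 to 3.48; limma adjusted p ran from 0.906 to 0.9998 over the 7. By level within each table, Nfkbia stood above 93.9% of genes in vitro and 98.8% in marrow, the highest member in both.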

How the data were processed

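Bulk RNA sequencing was done on sorted mouse marrow cells. The deposited tables give FPKM per gene and library, made by the authors; mm10 was the build, per the submitters' processing notes, while aligner, counter and annotation were not given in the sources used here. Libraries were made from TRIzol-extracted total RNA with a VAHTS Universal V6 kit, per the labels' protocols. HET marrow replicate 2 was not used here. No read counts were given, and low values fell within 0.1 of a whole fragment step for only 76.9 to 87.3% of values, so no count test was run; the depth estimates rest on these steps and are approximate.

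FPKM were tested as log2(FPKM + 1) with limma 3.58.1 (trended, robust) in R 4.3.3, on genes at FPKM 1 or more in at least 3 libraries of a table, with all genotypes of a table in one fit, Benjamini-Hochberg adjustment over all tested genes and a threshold of 0.05. The procedure was tried on simulated data with in vitro means and spreads and planted changes larger than those of the members in vitro. That trial does not bear on smaller changes or on marrow. Tables were tested separately, and a joint fit with 1 spread per gene for both tables gave the difference between sets. Levels, shares, correlations and motif matches were computed in Python 3.11.15 with pandas 2.3.3. Named beside the members are up to 4 called genes per list by smallest p, or the 2 of highest level where none was called. The 5 genes most correlated with Nfkbia and Rela are also named, with predicted genes, pseudogenes and antigen receptor segments left out. Members and lists were chosen with earlier results of these data known. Alternatives changed the pseudocount, filter, scaling, fit, block and the libraries included. Promoters came from RefSeq, GRCm38.p6.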

Additional observations from a re-analysis of the deposited data

How the results depend on the processing

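The 10 genes gave 55 results with a test, and 1008 alternative values. Of these, 2 passed the threshold, both for Tnfaip3 without WT replicate 1 (where 386 and 626 of 10844 genes were called in KO against WT and HET against WT, beside 325 and 400 of 10877), and 44 in 18 results had the opposite sign; the cause was not tested. With quantile normalization the log2 change was -0.035 for Birc3 and -0.015 for Nfkbie in KO against WT in vitro, and in marrow 0.22 for Nfkbia in KO against WT, 0.55 for Birc3 and 0.22 for Tnfaip3 in HET against WT. With median-ratio size factors it was -0.0011 for Birc3 in KO against WT in vitro, -0.011 for Nfkbia in HET against WT in vitro and 0.21 for Nfkbia in KO against WT in marrow. Rescaled to TPM it was 0.037 for Nfkbiz in HET against WT in vitro, and the difference between sets was 0.014 for Rela.

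With 1 library left out, the log2 change in vitro ranged in KO against WT from -0.041 to 0.11 for Birc3 and from -0.11 to 0.037 for Nfkb1, and in HET against WT from -0.14 to 0.23 for Nfkbia, -0.13 to 0.056 for Nfkbiz and -0.26 to 0.013 for Rel. In marrow it ranged in KO against WT from -0.25 to 0.21 for Nfkbia, -1.52 to 0.55 for Nfkbiz and -1.16 to 1.89 for Rela. In HET against WT it ranged from -2.57 to 1.92 for Birc3, -4.14 to 0.28 for Nfkb1, -2.96 to 0.73 for Rela and -1.98 to 0.88 for Tnfaip3, and in KO against HET from -0.76 to 3.73 for Birc3 and -0.43 to 3.26 for Rela. The difference between sets ranged from -0.46 to 1.61 for Nfkbiz, -1.71 to 1.34 for Rela and -1.95 to 0.58 for Tnfaip3.

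Of 63 calls of list and marker genes, 30 held under every alternative run, 33 were lost under at least 1 and 0 changed sign. Counts over all genes also moved. With 1 library left out, genes called in vitro ranged from 66 to 475 in KO against WT, 84 to 628 in HET against WT and 73 to 344 in KO against HET, and in marrow from 0 to 4, 0 to 323 and 0 to 330; the difference between sets ranged from 19 to 135. No filter gave 152 genes in KO against WT and 250 in HET against WT in vitro, and 6 in KO against HET in marrow. A filter at FPKM 5 gave 136 genes in vitro between KO and HET, and 30 between sets. A fit of the compared groups alone gave 175 in KO against WT and 261 in HET against WT in vitro, and 0 in both marrow comparisons with HET. Quantile normalization gave 2, 12 and 7 in the marrow comparisons (KO against WT, HET against WT, KO against HET) and 23 between sets. A pseudocount of 0.1 gave 35 in HET against WT and 31 in KO against HET in marrow, and a fit without trend or robust moderation gave 79 and 91. In KO against WT in vitro the split was 148 higher and 177 lower, and 120 and 222 with quantile normalization; in HET against WT it was 320 and 80, and 262 and 173.

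The labels do not say whether replicate numbers pair the libraries. Same-numbered deviations from group means correlated at -0.303 to 0.181 in vitro. They were 0.112, 0.181 and 0.0501 for KO and HET, 0.176, -0.303 and -0.230 for KO and WT, and -0.166, -0.144 and -0.261 for HET and WT. Deviations from means of so few libraries are tied to each other, so these values cannot decide whether the libraries were paired. A replicate block gave 172 genes in KO against WT and 234 in HET against WT in vitro, 0 in HET against WT and 0 between KO and HET in marrow, and 24 between sets, and called no member. With 2 or 3 libraries a group, depth down to 3.96 M fragments and many zeros, marrow changes of several fold in any member but Nfkbia could not be seen.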
